A study of Mus musculus with 6 samples.

Results

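Polyamine synthesis and turnover was followed through 9 genes in activated mouse CD8 T cells exposed to DAHB or to NaCl. The genes were chosen by name, and all 9 were found among the 13883 genes of the deposited table: ornithine decarboxylase (Odc1), S-adenosylmethionine decarboxylase (Amd1), spermidine synthase (Srm), spermine synthase (Sms), spermidine/spermine acetyltransferase (Sat1), antizyme inhibitor (Azin1), the antizymes Oaz1 and Oaz2, and spermine oxidase (Smox). The cells, from wild-type mice (lymph nodes and spleen), were stimulated with antibodies to CD3 and CD28. The control group was kept overnight in 20 mM NaCl and the other in DAHB at the same 20 mM; what DAHB is, beyond its name, is not stated. The age, sex and strain of the mice are not given in the sources used here. Each group had 3 samples of 100000 cells, and both groups were activated in the same way. Separate animals or cultures are not stated for samples of one group, so the p-values rest on a spread between samples that may be technical.

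Polyamines are small positively charged molecules that bind RNA and support translation and growth, and lymphocytes raise their synthesis on activation. Ornithine decarboxylase makes putrescine from ornithine. The decarboxylated product of S-adenosylmethionine then gives the aminopropyl groups with which spermidine synthase makes spermidine and spermine synthase makes spermine. Turnover runs backwards: Sat1 acetylates spermidine and spermine for export or oxidation, and Smox oxidises spermine to spermidine. Antizymes bind ornithine decarboxylase and deliver it to the proteasome, and antizyme inhibitors, relatives of the decarboxylase without its activity, bind antizymes in its place. Much of this control acts on translation and protein stability, which mRNA counts do not measure.

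The 6 libraries held 31055613 to 56007582 reads in the genes of the table, and Pearson correlations of log2 values were 0.992 to 0.995 within groups and 0.962 to 0.967 between them. All 5 markers of CD8 T cells were present, with a summed normalised count of 32844 to 33401 with NaCl and 41264 to 43760.4 with DAHB. Of 5 B cell markers only Cd79b was in the table (133 ± 15.7 and 586 ± 37.0), of 4 NK cell markers 2, Ncr1 and Klrb1c being absent (summed counts 59.2 to 157 and 132 to 172), of 4 CD4 T cell markers 3 (659 to 675 and 1561 to 1885), and all 5 myeloid markers were present (614 to 1134 and 1244 to 1579.7). All of these sums but that of the NK cell markers were higher in every DAHB library, and their part in the results was not tested. Not every marker followed its sum (limma-trend, adjusted p under 0.05). Cd3d fell, and Cd3e, Cd40lg, Itgam, Csf1r and the NK cell marker Fcgr3 did not pass. Cd3g, Cd8a, Cd8b1, Cd4, Zbtb7b, Cd79b, Lyz2, Cd68, Adgre1 and the NK cell marker Tyrobp rose. Zbtb7b, at 602 ± 14.0 with NaCl and 1574 ± 151 with DAHB, made up most of the CD4 T cell sum. Among the DAHB libraries, replicate 1 was the lowest of its group for 6 of the 9 genes and the highest for 2. In bulk RNA a change in the number of cells of a type cannot be told apart from a change in RNA per cell.

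In DAHB-treated cells Sat1 fell to 0.421 times its NaCl level and Odc1 to 0.737 times, with a smaller fall of Sms to 0.867 times. Smox rose to 1.69 times its NaCl level, Oaz2 to 1.36 times and Amd1 to 1.19 times. Srm, Azin1 and Oaz1 did not pass the test. Of the 9 genes 3 rose and 3 fell (limma-trend, Benjamini-Hochberg adjusted p under 0.05), a share close to that of all 13804 genes tested, of which 58.5% changed, 29.4% rising and 29.1% falling. For 7 of the 9 genes no DAHB library overlapped the NaCl range, against 63.4% of all genes. The median absolute log2 fold change was 0.25 for the 9 genes and 0.30 for all genes. Because the deposited counts are scaled to a size factor, a rise or fall is relative to the bulk of genes.

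**Figure D1:**
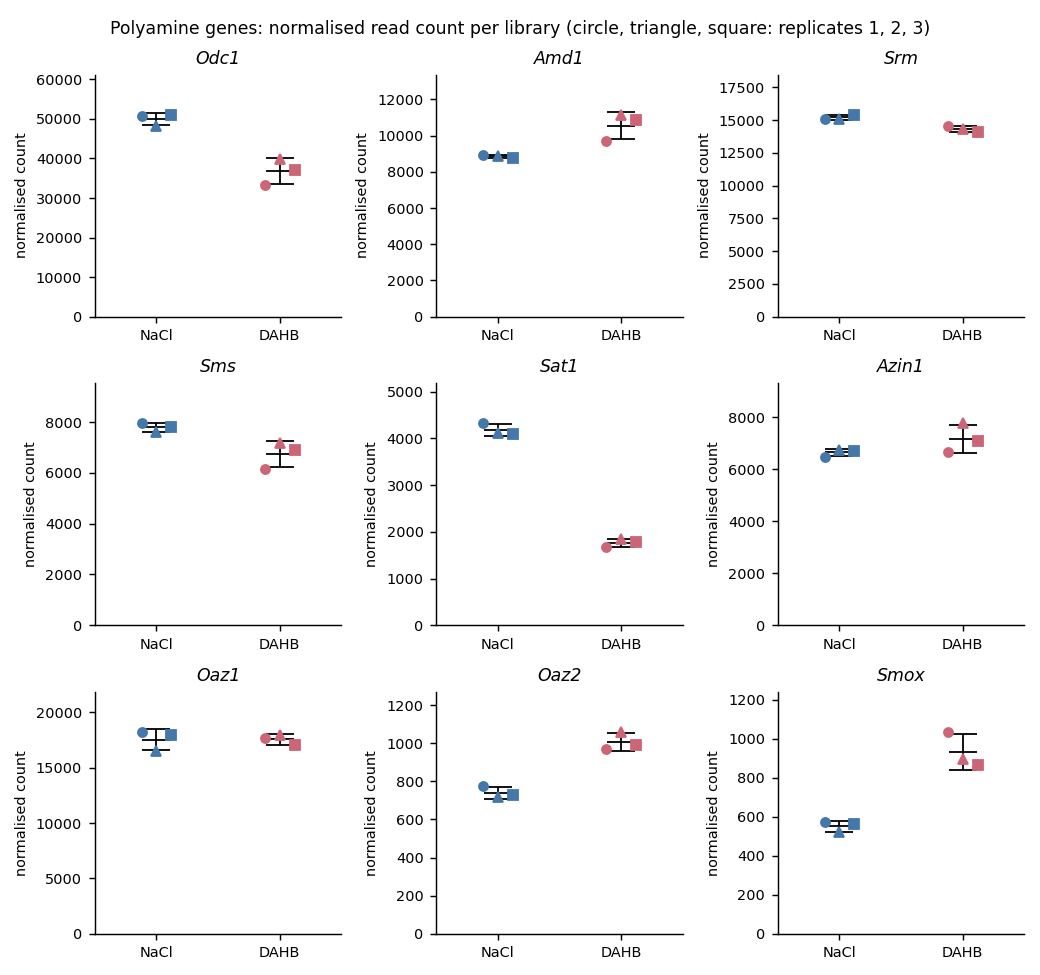
Normalised read count of each of the 9 genes (vertical axes, from 0) in the 3 NaCl (blue) and 3 DAHB (red) libraries, with the group mean and SD as black bars. The groups are apart for Sat1, Odc1, Smox, Oaz2, Amd1, Sms and Srm and overlap for Oaz1 and Azin1.

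Odc1, the first and usually rate-limiting enzyme (ENSMUSG00000011179, chromosome 12, 17544794 to 17551505, plus strand, GRCm38), had normalised read counts of 50714, 48214 and 51010.0 with NaCl and 33307, 39926 and 37206 with DAHB. Every DAHB library lay below every NaCl library, and DAHB replicate 1 was the lowest. The means were 49979 ± 1536 (SD, n = 3) and 36813 ± 3327 (SD, n = 3), and the log2 fold change, on the log2(normalised count + 1) scale, was -0.44 with an SE of 0.060 (adjusted p = 2.21e-05). Odc1 was read deeply, with at least 30345 reads in each library. Of 50-base windows of its longest annotated transcript, 42.2% also occur in transcripts of other genes, chiefly the predicted gene Gm7993 (20.3%), so how the counting treated reads with several matches bears on its value.

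Amd1, whose enzyme supplies the aminopropyl donor, rose from 8914, 8869 and 8761 with NaCl to 9683, 11141 and 10837 with DAHB. All 3 DAHB libraries were higher than the NaCl libraries, and they were spread more widely: the means were 8848 ± 78.7 and 10554 ± 769 (SD, n = 3), a log2 fold change of 0.25 (standard error 0.052, adjusted p = 0.000782). The value of Amd1 (ENSMUSG00000075232, chromosome 10, 40287458 to 40302186, minus strand) is uncertain because 87.6% of the 50-base windows of its transcript are shared, chiefly with its copy Amd2 on the same chromosome. Counts assigned to Amd2 were 99.2 ± 14.1 and 84.0 ± 20.3, which did not pass the test (log2 fold change -0.25, adjusted p = 0.276), and passed as lower under quantile normalisation.

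Of the enzymes that use this donor, Srm had counts of 15122, 15085 and 15399 with NaCl and 14573, 14329 and 14076 with DAHB. The groups did not overlap, yet the difference was small, 15202 ± 172 against 14326 ± 249 (SD, n = 3), and did not pass (log2 fold change -0.09, 95% interval -0.17 to 0.00, adjusted p = 0.0814). Srm (ENSMUSG00000006442, chromosome 4, 148591503 to 148594993) passed as lower when DAHB replicate 1 was left out (log2 fold change -0.10, adjusted p = 0.0208) and when values were corrected for GC content and exon length (-0.25, adjusted p = 1.63e-05). These settings called 60.1% and 61.1% of all genes. Sms, which makes spermine, fell from 7949, 7601 and 7822 to 6172, 7171 and 6909.7. Its means were 7791 ± 177 and 6751 ± 518, a log2 fold change of -0.21 (standard error 0.054, adjusted p = 0.00407), and the lowest DAHB value was again replicate 1, without which the log2 fold change was -0.15 (adjusted p = 0.00356). Under quantile normalisation it was -0.12 (adjusted p = 0.0466) and with the GC and length correction -0.14 (adjusted p = 0.0242). Windows shared with other transcripts made up 28.7% of the Sms transcript (ENSMUSG00000071708, chromosome X, 157443855 to 157492287, minus strand), in particular with its processed pseudogene, and 2.40% of that of Srm.

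The turnover genes moved furthest, in opposite directions. Sat1 (ENSMUSG00000025283, chromosome X, 155213132 to 155216449, minus strand) had counts of 4322, 4119 and 4104 with NaCl and 1667, 1838 and 1774 with DAHB. Each DAHB library held less than any NaCl library by a margin many times the spread within groups: the means were 4182 ± 122 and 1759.8 ± 86.2 (SD, n = 3), a log2 fold change of -1.25 (standard error 0.051, adjusted p = 1.77e-10). Of all genes tested 90.6% had a smaller absolute log2 fold change than Sat1. Smox (ENSMUSG00000027333, chromosome 2, 131491496 to 131525922, plus strand) had counts of 573, 521 and 563 with NaCl and 1035, 896 and 866 with DAHB. All DAHB libraries were higher, with means of 552 ± 28.1 and 932 ± 90.2, a log2 fold change of 0.75 (standard error 0.079, adjusted p = 1.94e-06), and 81.6% of genes had a smaller absolute log2 fold change. Smox was the least read of the 9 genes, with at least 471 reads in a library, a counting error of at most 4.61%. It shared no 50-base window with other genes, and Sat1 shared 6.22%.

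The bases upstream of the RefSeq start sites of the first synthetic gene and of the turnover genes are shown. The entry into the pathway can so be set beside both routes of turnover. RefSeq (GRCm38.p6) gave promoters for 7 of the 9 genes; Srm and Azin1 had no entry. The 250 bases before the start lie at chr12:17544623-17544872 on the plus strand for Odc1, chrX:155216450-155216699 on the minus strand for Sat1 and chr2:131491612-131491861 on the plus strand for Smox. Each is written 5′ to 3′ in the direction of transcription, and capitals mark the GC box GGGCGG, bound by SP family factors, the E-box CACGTG, bound by MYC and MAX, and the antioxidant core TGACNNNGC, on either strand.
Odc1 promoter: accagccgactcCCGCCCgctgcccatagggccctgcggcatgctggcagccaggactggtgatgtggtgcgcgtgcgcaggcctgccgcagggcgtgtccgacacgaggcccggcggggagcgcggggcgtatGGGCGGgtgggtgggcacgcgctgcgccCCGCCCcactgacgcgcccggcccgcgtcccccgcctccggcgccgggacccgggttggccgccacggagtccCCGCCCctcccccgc
Sat1 promoter: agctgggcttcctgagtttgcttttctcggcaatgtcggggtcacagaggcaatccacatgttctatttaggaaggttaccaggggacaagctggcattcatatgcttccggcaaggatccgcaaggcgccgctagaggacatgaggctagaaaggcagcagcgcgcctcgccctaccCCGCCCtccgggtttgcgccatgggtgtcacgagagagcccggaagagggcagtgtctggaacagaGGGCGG
Smox promoter: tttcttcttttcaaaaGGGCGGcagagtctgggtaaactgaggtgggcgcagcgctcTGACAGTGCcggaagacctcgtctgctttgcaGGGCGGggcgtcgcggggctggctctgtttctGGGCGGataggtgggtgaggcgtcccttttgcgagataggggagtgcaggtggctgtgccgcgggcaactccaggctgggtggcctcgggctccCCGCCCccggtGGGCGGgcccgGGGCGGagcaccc
The GC box was found 4 times before Odc1, in both orientations, 2 times before Sat1 and 6 times before Smox. It occurred in 6 of the 7 genes with an entry, the exception being Oaz1, and in 32.7% of the 32851 mouse promoter windows of the same length. GC content was 80% in the Odc1 window, 59.6% in that of Sat1 and 68% in that of Smox. The antioxidant core was found before Smox, 193 bases from the start, and before Oaz1, against 10.2% of all windows. The E-box was found before 1 of the 7 genes, Sms, against 6.02% of all windows. Sms had 2 windows, the first with the GC box and the second with the E-box. Counts by gene are thus set beside shares by window. The TATA box TATAAA was in none of the 7, against 12.4%. A match describes letters and is not a site of binding. Smox has 17 annotated transcripts in GENCODE M21, and this window precedes the RefSeq start. The whole Smox window lies inside the GENCODE M21 gene, which starts at 131491496. The window before Oaz2 and the first before Sms also lie inside their genes. The end of the Odc1 window, with its last GC box, lies inside the gene, which starts at 17544794.

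Both antizyme mRNAs need a shift of the ribosome to the +1 frame to give the full protein, an event that polyamines favour. The site is shown because the 2 antizymes share it while their mRNAs differed in response. It was read from GENCODE M21 transcripts at chr10:80828268-80828322 for Oaz1 and chr9:65686245-65686299 for Oaz2, both on the plus strand of GRCm38, and capitals mark the slippery serine codon TCC, the stop codon TGA of the first frame and the base after it.
Oaz1 frameshift site: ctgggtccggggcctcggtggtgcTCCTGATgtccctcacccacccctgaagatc
Oaz2 frameshift site: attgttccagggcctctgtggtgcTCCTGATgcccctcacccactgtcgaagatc
The 2 stretches are identical at 45 of 55 bases. Oaz1 (ENSMUSG00000035242, chromosome 10, 80826656 to 80829290) had counts of 18232, 16468 and 17950.3 with NaCl and 17671, 17971 and 17038 with DAHB. These overlapped fully, with means of 17550.1 ± 948 and 17559.6 ± 476 (SD, n = 3), a log2 fold change of 0.00 (95% interval -0.10 to 0.10, adjusted p = 0.978). Its sign changed with the processing, to -0.07 with the GC and length correction. Oaz2 (ENSMUSG00000040652, chromosome 9, 65668001 to 65690300) had counts of 775, 716 and 726 and of 968, 1059 and 989. All DAHB libraries were higher, with means of 739 ± 31.6 and 1005 ± 47.5, a log2 fold change of 0.44 (standard error 0.065, adjusted p = 4.42e-05). Windows shared with other transcripts made up 20.1% of Oaz1 and 11.98% of Oaz2, mostly with a processed pseudogene of each.

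Azin1, which frees ornithine decarboxylase from antizyme, had counts of 6486, 6759 and 6714 with NaCl and 6681, 7764 and 7077 with DAHB. DAHB replicate 1 lay within the NaCl range and the other DAHB libraries above it, and the means of 6653 ± 147 and 7174 ± 548 (SD, n = 3) did not differ by the test (log2 fold change 0.11, 95% interval -0.01 to 0.22, adjusted p = 0.102). Azin1 (ENSMUSG00000037458, chromosome 15, 38487427 to 38519266, minus strand) passed as higher without DAHB replicate 1 (log2 fold change 0.16, adjusted p = 0.00545), under quantile normalisation (0.19, adjusted p = 0.00551) which called 59% of all genes, and with the GC and length correction (0.22, adjusted p = 0.000585). An antisense gene shares 358 exonic bases with it, and without a stated strand setting its reads cannot be told apart.

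**Figure D2:**
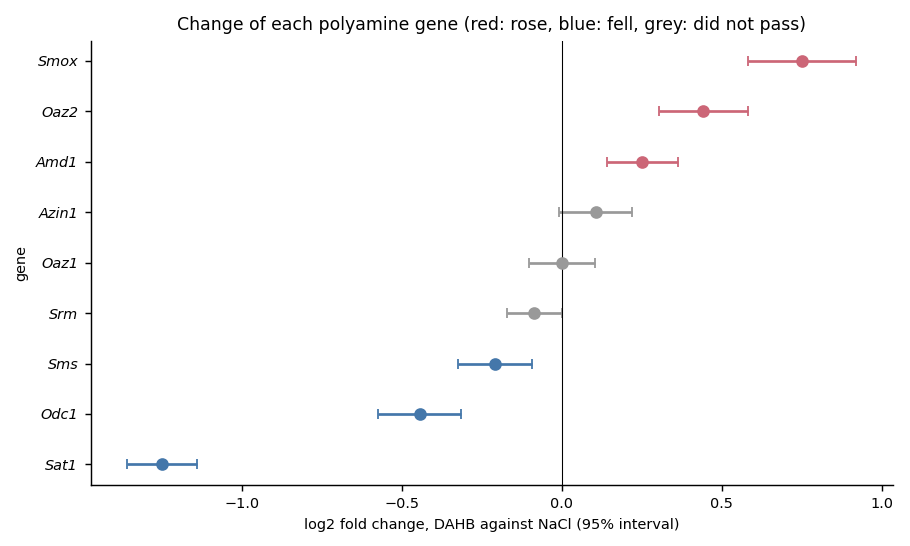
Log2 fold change of each gene between DAHB and NaCl (horizontal axis) with its 95% interval from limma, ordered by size. Sat1 lies lowest at -1.25 and Smox highest at 0.75, and the intervals of Srm, Oaz1 and Azin1 reach 0.

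Within a library the ratio of one gene to another does not depend on the size factor. The ratio of Odc1 to Oaz1 was 2.85 ± 0.073 (SD, n = 3) with NaCl and 2.10 ± 0.18 with DAHB. On the log2 scale it was 1.48, 1.55 and 1.51 against 0.91, 1.15 and 1.13, with every DAHB library lower, a difference of -0.45 (exact two-sided permutation test, p = 0.1, the smallest that 3 against 3 samples allow). The log2 ratio of Srm to Sms was 0.93, 0.99 and 0.98 with NaCl and 1.24, 1.00 and 1.03 with DAHB, a difference of 0.12 (exact p = 0.1). Without DAHB replicate 1 that difference was 0.05, and under quantile normalisation it was 0.08 (exact p = 0.6). Azin1 to Oaz1 gave log2 ratios of -1.49, -1.28 and -1.42 against -1.40, -1.21 and -1.27, which overlapped (difference 0.10, exact p = 0.2). That value was 0.06 without NaCl replicate 1 or DAHB replicate 2, 0.16 without NaCl replicate 2 and 0.16 without DAHB replicate 1. These 3 ratios were the only ones computed, and their Benjamini-Hochberg adjusted p-values were 0.15 for Odc1 to Oaz1 and for Srm to Sms and 0.2 for Azin1 to Oaz1.

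**Figure D3:**
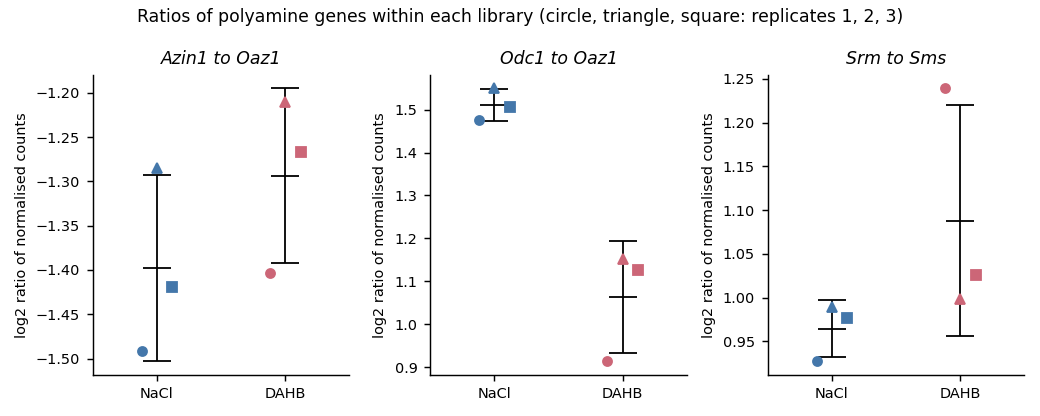
Log2 ratio of normalised counts within each library (vertical axes, which do not start at 0) for 3 gene pairs, with the group mean and SD as black bars. The groups are apart for Odc1 to Oaz1, where DAHB lies at 0.91 to 1.15, narrowly apart for Srm to Sms, and overlap for Azin1 to Oaz1.

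Levels were compared between genes per kb of merged exons, a length that includes all annotated isoforms and so lowers the value of genes with long retained introns such as Oaz1. With NaCl the order was Odc1 (14678 ± 451 normalised counts per kb, SD, n = 3), Srm (9507 ± 107), Oaz1 (6861 ± 371), Amd1 (2498 ± 22.2), Sat1 (1508 ± 43.9), Sms (1296 ± 29.4), Azin1 (1063 ± 23.4), Oaz2 (247 ± 10.6) and Smox (142 ± 7.21). Neighbours in that order were apart by more than their SDs, which do not cover how reads with several matches were counted. The share of windows also found in other transcripts was 87.6% for Amd1, 42.2% for Odc1 and 28.7% for Sms. It was 2.40% for Srm and 0 for Smox. As that counting is not stated, the places of genes with many shared windows are uncertain. With DAHB Odc1 (10811 ± 977), Srm (8959 ± 156), Oaz1 (6865 ± 186) and Amd1 (2979.6 ± 217) kept their places, followed by Azin1 (1147 ± 87.6) and Sms (1123 ± 86.2), whose levels per kb differed by less than their spread. Sat1 stood after them at 634 ± 31.1, ahead of Oaz2 (336 ± 15.9) and Smox (239 ± 23.2). Over all 6 libraries 99.1% of genes had a lower level per kb than Odc1, 98.9% a lower one than Srm and 54.3% a lower one than Smox.

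The neighbouring genes of the pathway were taken from 6 lists of 44 genes, of which 35 were in the table and were tested. Of these 14 rose and 15 fell, where 29.4% of all genes tested rose and 29.1% fell (58.5% in either direction). The median log2 fold change was -0.11 against 0.00 for all genes. The counts of single lists rest on 3 to 9 genes each and are given beside the same shares. The 9 others are not analysed here. Of 3 tested paralogues of the 9 genes 1 rose and 1 fell (median log2 fold change -0.25), near the 58.5% of all genes that changed. Azin2, another antizyme inhibitor, rose from 16.4, 11.1 and 14.3 with NaCl to 173, 137 and 135 with DAHB. These counts are low but far apart, with means of 13.9 ± 2.72 and 149 ± 21.5 (SD, n = 3), a log2 fold change of 3.33 (standard error 0.22, adjusted p = 2.38e-08). Paox, the peroxisomal oxidase that acts on the acetylated products of Sat1, fell from 1104, 1164 and 1099.8 to 681, 703 and 736. All DAHB libraries of Paox were lower, with a log2 fold change of -0.67 (standard error 0.062, adjusted p = 5.86e-07). Paox shares 142 exonic bases with Echs1 on the opposite strand, and 28.9% of its windows occur in other transcripts.

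Spermidine donates part of itself to the translation factor eIF5A, a modification called hypusine. Deoxyhypusine synthase (Dhps) fell from 1554 ± 81.3 to 1161 ± 34.6 and deoxyhypusine hydroxylase (Dohh) from 4019 ± 213 to 3165 ± 52.8 (SD, n = 3), with log2 fold changes of -0.42 and -0.34. That of Dohh was -0.54 with the GC and length correction. Eif5a, the main form of the factor, was at 90986 ± 3918 and 83217 ± 3039 and passed narrowly as lower (log2 fold change -0.13, adjusted p = 0.0486). That call was lost under 5 of 17 alternatives: without NaCl replicate 1, NaCl replicate 3 or DAHB replicate 3, with a pseudocount of 10 and with the replicate block. It was -0.27 under quantile normalisation and -0.19 with the GC and length correction. Its paralogue Eif5a2 rose from 779.6 ± 14.1 to 1403 ± 135 (log2 fold change 0.84, adjusted p = 2.16e-07), so 3 of the 4 genes fell, Eif5a among them, and 1 rose (median log2 fold change -0.24), against 29.1% and 29.4% of all genes.

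Of 8 tested genes of ornithine and arginine metabolism 6 rose and 2 fell, with a median log2 fold change of 0.40, against 29.4% and 29.1% of all genes. The list holds genes that use ornithine or arginine as well as genes that supply them, so its counts do not measure supply. Ass1 and Asl, which make arginine from citrulline, rose from 3657 ± 145 to 9351 ± 453 and from 1165 ± 28.2 to 1575 ± 83.3 (SD, n = 3). The mitochondrial ornithine carrier Slc25a15 rose from 1001 ± 56.2 to 1355 ± 79.3. Gatm, which releases ornithine from arginine in creatine synthesis, rose from 128 ± 9.93 to 173 ± 31.9 (adjusted p = 0.0236), a call lost under quantile normalisation (log2 fold change 0.088 in place of 0.42) and without NaCl replicate 1 or DAHB replicate 2 (0.28 without the latter). The 2 that fell were picked out once their values were known: Oat, which turns ornithine into glutamate semialdehyde (log2 fold change -0.31), and the arginine transporter gene Slc7a1 (-0.20). Pycr1 (log2 fold change 0.38) and Aldh18a1 (0.18), picked out in the same way, rose.

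Of 7 genes that make S-adenosylmethionine or salvage methylthioadenosine, the by-product of both aminopropyl transfers, 3 fell and 1 rose (median log2 fold change -0.12), near the 58.5% of all genes that changed in either direction. Enoph1 fell from 1669.6 ± 36.6 to 1276 ± 63.3 and Adi1 rose from 1692 ± 37.2 to 2092 ± 83.6 (SD, n = 3), both enzymes of the salvage route. Mat2a (log2 fold change -0.12, adjusted p = 0.0361) and Mtap (-0.11, adjusted p = 0.0415) passed as lower by small amounts, calls lost under 8 and 10 of 17 alternatives, any of the 3 NaCl libraries left out among them. Under quantile normalisation they were at -0.076 and -0.0086, and with the GC and length correction at -0.036 and -0.067. Mtap was also lost by edgeR and DESeq2. Of 4 tested transport genes 3 rose and 1 fell (median log2 fold change 0.78), against 29.4% and 29.1% of all genes. The lysosomal polyamine exporter gene Atp13a2 rose from 1047 ± 66.5 to 1845 ± 147, the glypican gene Gpc1 from 548 ± 57.4 to 918 ± 90.1 and Slc12a8 from 66.6 ± 5.51 to 145 ± 15.7. The log2 fold change of Slc12a8 was 1.11, and 0.68 under quantile normalisation. Atp13a3, an uptake transporter of the same family as Atp13a2, fell from 13934 ± 266 to 11966.5 ± 94.9, a log2 fold change of -0.22 that was -0.099 with the GC and length correction.

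Of 9 regulators 2 rose and 5 fell (median log2 fold change -0.26), against 29.4% and 29.1% of all genes. One of the rises, that of Mxd1 (log2 fold change 0.29, adjusted p = 0.0289), was lost under 5 of 17 alternatives: quantile normalisation (0.12), and without NaCl replicate 2, NaCl replicate 3, DAHB replicate 1 or DAHB replicate 2. Myc, which activates Odc1 transcription, was at 24184 ± 503 and 24154 ± 1353 and did not pass (log2 fold change -0.00, adjusted p = 0.964). Among its antagonists Mnt fell from 1336 ± 62.2 to 1043 ± 58.8 and Mxd4 from 353 ± 43.0 to 177 ± 18.1, whereas Mxd3 rose from 108 ± 7.33 to 247 ± 20.5 (SD, n = 3). Nfe2l2, which encodes NRF2, a factor that acts on SAT1 transcription in human cells, fell from 1483 ± 53.7 to 1160.1 ± 41.2 (log2 fold change -0.35, adjusted p = 9.30e-05). Mycn, picked out once its values were known, fell from 51.9 ± 5.35 to 20.7 ± 4.88 (log2 fold change -1.31, adjusted p = 0.000543). Its counts were low, with 14 to 75 reads in a library. The call of Mycn was kept under all 16 alternatives in which it was tested.

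**Figure D4:**
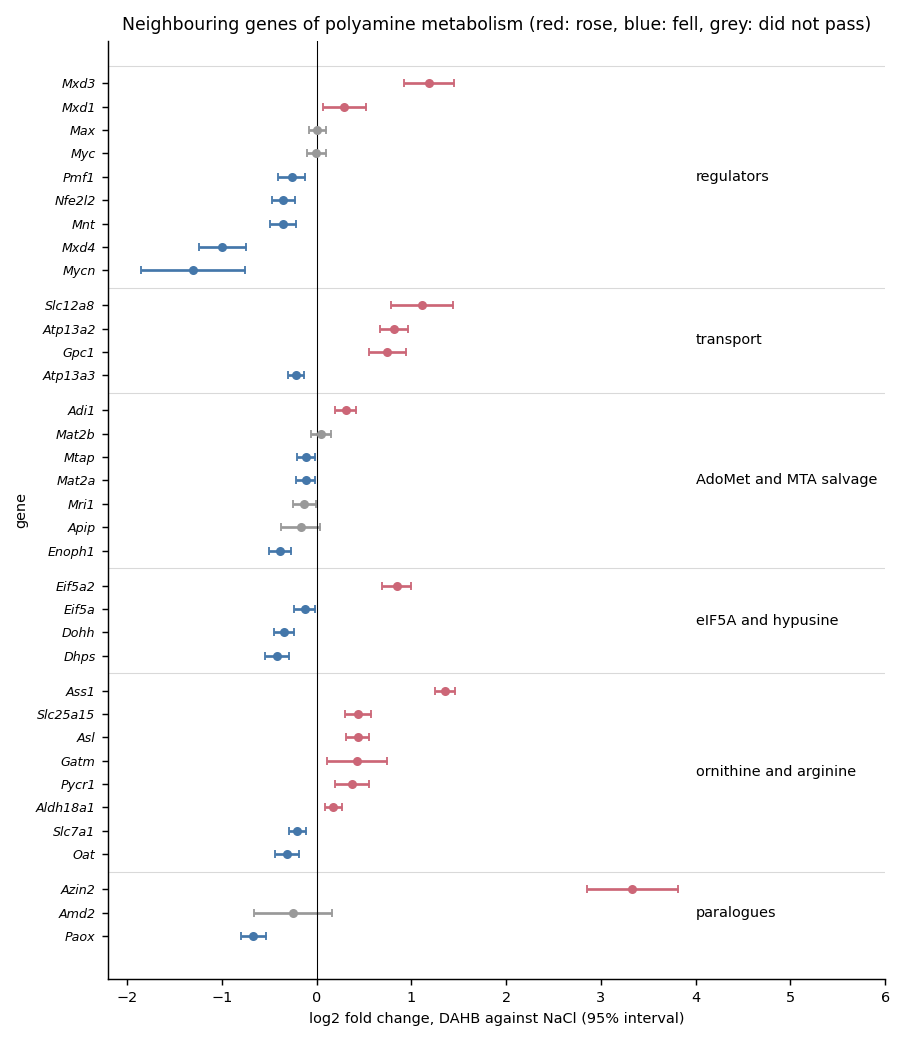
Log2 fold change with its 95% interval (horizontal axis) of the 35 tested genes of the 6 neighbouring lists, ordered within each list. Azin2 lies furthest to the right at 3.33, and the list of ornithine and arginine metabolism has 6 of its 8 genes above 0.

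Among 9840 genes with a mean of at least 100, the profiles closest to Odc1 over the 6 libraries, by the root mean square difference of centred log2 values, were Seh1l, Vdac3 and Slc35b3 (0.024, 0.025 and 0.025). Those closest to Sat1, which had the largest absolute log2 fold change of the 9 polyamine genes, were Satb1, Tnfsf4 and Ak4 (0.037, 0.039 and 0.042). Satb1 fell from 24506 ± 47.8 to 10558 ± 489 and Seh1l from 4491 ± 99.6 to 3336 ± 236 (SD, n = 3). The log2 fold changes of Seh1l, Vdac3 and Slc35b3 were -0.43, -0.45 and -0.46, against -0.44 for Odc1. Those of Satb1, Tnfsf4 and Ak4 were -1.22, -1.28 and -1.18, against -1.25 for Sat1. Where replicates lie close together, such a search mostly picks genes of like fold change, and shared control was not tested.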

How the data were processed

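RNA was measured in 3 NaCl and 3 DAHB samples. Trimmomatic 0.36, STAR 2.5.2b, featureCounts 1.5.2, DESeq2 and the GRCm38 build are named, per the submitters' processing notes. The annotation, the strand setting and the handling of reads with several matches are not given in the sources used here. The deposited signal is a normalised count: the reads of a gene over a size factor that the authors applied to the whole library. Whole reads could be recovered for 100% of values (tolerance 0.001), and libraries held 31055613 to 56007582 of them. No gene of the table had fewer than 61 reads in total, so absence from it is no measurement.

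The 13804 genes that reached a normalised count of 10 in 3 or more libraries were tested on log2(normalised count + 1) with limma-trend (two-sided; limma 3.58.1, R 4.3.3). P-values were adjusted over all of them by the Benjamini-Hochberg method, with a threshold of 0.05. Tested on simulated data of 13345 genes, it found 20.4% of the genes altered 1.25-fold, 72% of those altered 1.5-fold and 94% of those altered 2-fold. Of its 148 calls 5 were false. That simulation altered only 49 or 50 genes at each fold, all upward and with a single fixed dispersion. In the real data 58.5% of genes were called, so these rates do not describe the test on these samples. Ratios were compared by exact permutation tests (scipy 1.17.1). Alternatives were other pseudocounts (0.5 and 10), other filters (none, or 50), quantile normalisation, equal totals, a replicate block, a robust prior, a GC and exon length correction (13776 genes), each library left out, and edgeR 4.0.16 and DESeq2 1.42.0 on the recovered reads. The last 2 called 8084 and 7670 genes against 8071 with limma. Exons, overlaps and 50-base windows came from GENCODE M21 on GRCm38 and promoters from RefSeq.

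From each pathway list the text names up to 4 genes, those with the largest absolute log2 fold change among genes past the threshold whose higher group mean reached 100. Myc and Amd2 are named whatever their values. Oat, Slc7a1, Pycr1, Aldh18a1, Mxd1 and Mycn, which the rule does not pick, were named after their values were seen. The members and lists were chosen with earlier results of these data known. Within groups, pairs of libraries gave chi-square values of 4.58 to 17.1 per degree of freedom, above counting noise, and none was taken as the same library deposited again; technical repeats of a culture would also differ in this way.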

Additional observations from a re-analysis of the deposited data

How the results depend on the processing

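Sat1, Odc1, Sms, Smox, Oaz2 and Amd1 kept their direction and their side of the threshold under all 17 alternatives, with log2 fold changes of -1.28 to -1.15, -0.51 to -0.37, -0.25 to -0.12, 0.67 to 0.80, 0.41 to 0.48 and 0.21 to 0.35. With the GC and length correction Srm passed as lower (-0.25) and Azin1 as higher (0.22), the latter also under quantile normalisation (0.19). Oaz1, which never passed, was at -0.072 with the correction. With each library left out in turn, Srm ranged from -0.10 to -0.073, Azin1 from 0.048 to 0.16 and Oaz1 from -0.043 to 0.030; the cause was not tested. Between 3 and 4 of the 9 genes rose and between 3 and 4 fell. Correlations of same-numbered deviations were from -0.15 to 0.04. With 3 libraries per group, centred on their means, they cannot show whether samples were paired. With the replicate block 3 of the 9 genes rose and 3 fell, with 3931 and 3841 of all genes. The block changed no call among the 9. Quantile normalisation moved the median of all genes to -0.07 on the log2 scale. Intervals and counting errors cover these samples only, and 3 against 3 exact tests cannot pass the threshold.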
